A study of Mus musculus with 2 samples.

Results

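*Pax6* and 8 other transcription factors of the ocular surface, *Trp63*, *Tfap2a*, *Sox9*, *Ehf*, *Elf3*, *Grhl3*, *Foxc1* and *Foxc2*, were followed through the cell clusters of the mouse cornea. They were chosen by name, for their known roles in the eye and its epithelium, with earlier results of these data known. They make up 9 of the 20198 genes of the deposited count table. RNA of single cells was counted in droplets, where a unique molecular identifier (UMI) marks each captured molecule. The UW library pooled the corneal cells of 4 unwounded mice (8 corneas) and the W library those of 4 mice (8 corneas) whose corneal epithelium had been scraped off within a circle 2.5 mm wide 24 h earlier. Whole corneas were digested, the epithelium with trypsin and the rest with collagenase. The animals were male and 6 to 8 weeks old, and neither the labels nor the methods of the study name a strain. UW held 16450 cells with 367166822 UMIs (median 22014 per cell) and W 12417 cells with 289586482 UMIs (median 20290). With 1 library per condition there is no replicate check, so no test was made. The study also assigned cells to mice with the Souporcell algorithm, and no such assignment was used here. Every interval given is a 95% interval that covers counting error only.

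Pax6 is the paired-box factor that specifies the eye, and it is needed throughout life to keep corneal epithelial cells corneal. The epithelium is renewed from basal and limbal cells, in which p63, the product of *Trp63*, upholds the capacity to divide and stratify, while epithelial ETS factors and grainyhead-like factors act as cells move up and differentiate. The forkhead factors Foxc1 and Foxc2 are best known from the neural crest that forms the stroma, the inner lining and the drainage tissue of the front of the eye.

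The deposited table holds 17 clusters, of which 10 carried corneal epithelial markers, and 12 clusters had at least 50 cells in each library. Sums of fixed markers and leading genes, in UMIs of a gene per 1e6 UMIs of a cluster (CPM), placed the epithelial clusters by layer. Limbal markers summed to 2984 CPM in cluster 9 of UW and 4207 in W, and mitotic markers to 1898 and 939.8 in cluster 8. S-phase markers summed to 421.7 and 588 in cluster 11 and to 420.7 and 419.9 in cluster 8, and cluster 3 was read as basal from its leading genes, among them *Lamb3* and *Itgb4*. The sum of the fixed basal markers did not single out cluster 3, with 3337 CPM in UW and 4278 in W beside 23646 and 21628 in cluster 5. Clusters 1 and 4 led in suprabasal markers, cluster 5 in conjunctival keratins, clusters 6 and 7 in superficial markers, and cluster 2 lay between the suprabasal and superficial ones. Cluster 0 carried stromal markers, cluster 10 was left unnamed, with stromal, trabecular (9063 CPM in UW and 18046 in W) and corneal endothelial markers (1069.6 and 884) together, and clusters 13 to 16 were immune cells of W. Cluster 7 was counted as epithelium by a judgement on its leading genes, and values without it are given with the other alternatives.

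The comparison of W with UW asks how the factors differed 1 day after wounding. Over the pooled epithelium, 13501 cells in UW and 8507 in W, 8 of the 9 factors passed the floor of 20 UMIs over both libraries and 5 CPM in a library. None of the 8 was past 2-fold, where 13.8% of 9171 genes were past 2-fold higher in W and 7.36% lower. In these pooled sums *Sox9* differed most, with 165.7 CPM in UW and 285 in W, a log2 ratio of 0.78 (0.76 to 0.80). The other ratios lay between -0.31 for *Ehf* and 0.22 for *Trp63*, and the median of the 8 was -0.19 beside 0.10 over all genes. With equal weight for each cluster, *Tfap2a*, *Grhl3*, *Trp63* and *Foxc1* differed more than *Sox9*. Of the genes past 2-fold, 65.2% were higher in W, but 45.9% with TMM factors and 44.8% with median-of-ratios size factors, which moved the median over all genes by -0.22 and -0.23. The epithelial clusters with the most cells differed between the libraries, clusters 1, 2 and 3 in UW and clusters 8, 5 and 9 in W, so the ratios within clusters carry the comparison.

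Within clusters, 93 of 108 ratios of a factor passed the floor. Of these, 4 were past 2-fold higher in W, where the share over all genes and the same clusters was 8.47%, and 1 was past 2-fold lower, against 8.44%. The 4 were all *Sox9* (clusters 2, 4, 6 and 7) and the 1 was *Tfap2a* in cluster 9, so the factors as a group did not stand above the background. Their ratios leaned down, with 59 below 0 and 34 above and a median of -0.13, beside -0.07 over all genes.

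**Figure D1:**
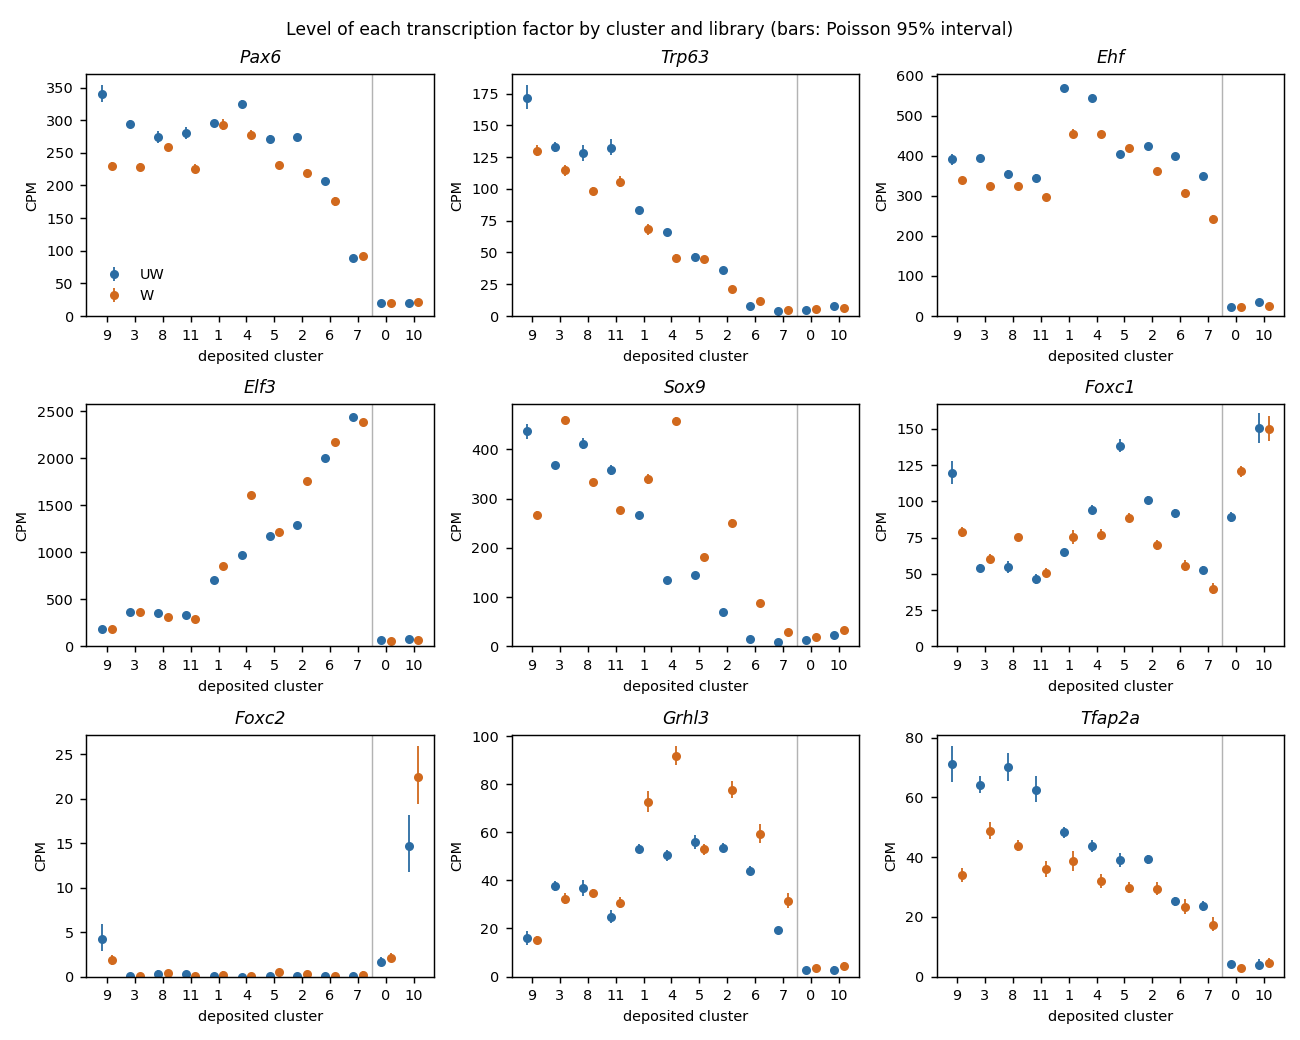
Level of each factor in CPM by deposited cluster, with UW in blue and W in orange and bars for the Poisson 95% interval. Clusters run from limbal and basal (9, 3, 8, 11) through 1, 4, 5 and 2 to superficial (6, 7), and stroma (0) and the unnamed cluster 10 stand right of the grey line. *Trp63* falls from left to right and *Elf3* climbs in both libraries, and *Sox9* of W is far above UW in clusters 4 and 2.

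*Pax6* (chr2:105668900-105697364, GRCm38), the factor of corneal identity, was found throughout the epithelium. Its 91.3 CPM in cluster 7 of W overlapped the 86.0 CPM of immune cluster 14, whose cells were shallower (median 8724 UMIs beside 21232.5). In UMIs per cell, *Pax6* was at 2.07 in cluster 7 of W and 0.895 in cluster 14. In UW its level ran from 340.5 CPM in limbal cluster 9 to 88.2 in superficial cluster 7, and in W from 293 in cluster 1 to 91.3 in cluster 7. In the UW order 9, 4, 1, 3, 11, 2, 8, 5, 6, 7 the intervals of neighbours overlapped from 9 to 4 and from 1 through 5. *Pax6* was lower in W in 9 of 10 epithelial clusters, with a median log2 ratio of -0.23, although cluster 8 turned to 0.02 with TMM factors and cluster 1 to 0.06 in the mean over cells. Cluster 7, the exception at 0.05 (-0.05 to 0.15), turned to -0.33 with TMM factors. Over the epithelial clusters, the share of genes with a higher ratio than *Pax6* ran from 49.0% in cluster 1 to 78.5% in cluster 9. In clusters 4 and 8 it was 51.1% and 51.4%, so there *Pax6* lay near the middle of all genes. The widest gap was in cluster 9, with 340.5 CPM in UW and 229.6 in W, a log2 ratio of -0.57 (-0.64 to -0.50). Limbal cluster 9 and suprabasal cluster 4, whose intervals overlapped, were the highest for *Pax6* in UW, and in W cluster 9 ranked below clusters 1, 4, 8 and 5, the last within its interval.

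Among the genes that Pax6 is known to activate, *Krt12*, the keratin of the corneal epithelium, had 26753 CPM in the pooled epithelium of UW and 12352 in that of W, a log2 ratio of -1.11. *Aldh3a1*, a corneal crystallin, had 5574 and 3168 CPM, a ratio of -0.82 that passed 2-fold with TMM factors (-1.03), and *Mmp9* was under the floor. Inside clusters, *Aldh3a1* was lower in W in all 10 epithelial clusters, while *Krt12* was lower in 8 and higher in the superficial clusters 6 (16038 and 19064 CPM) and 7 (5299 and 7216). No other Pax gene passed the floor, and the 5 that are in the table summed to 0.264 CPM in UW and 0.36 in W.

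*Trp63* (chr16:25683763-25892102), the master factor of stratified epithelium, was graded by layer. In UW it stood at 171.9 CPM in cluster 9, 133 in cluster 3, 66.2 in cluster 4 and 7.51 and 3.91 in the superficial clusters 6 and 7, and in W at 130.1, 114.5, 46.0, 11.8 and 5.02 CPM. *Trp63* was thus highest in the limbal and basal clusters and lowest in the superficial ones in both libraries. The values of cluster 7 lay with those of the stroma, 4.82 and 5.76 CPM, so *Trp63* was not detectable above free RNA there. Counts from the 3′ end do not separate the long and the truncated forms of p63.

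*Trp63* had a higher pooled level in W, with 61.5 CPM in UW and 71.5 in W, but a lower level in 8 of the 10 epithelial clusters. The pooled log2 ratio was 0.22 (0.19 to 0.25), and it was -0.33 with equal weight for each cluster and -0.0012 with TMM factors. Inside clusters the lowest ratio was -0.79 (-0.93 to -0.64) in cluster 2 and the highest 0.65 (0.37 to 0.91) in cluster 6. *Trp63* in cluster 2 of W, at 21.0 CPM, overlapped the 21.2 CPM of immune cluster 14, but in UMIs per cell it was at 0.542 beside 0.220. The pooled direction was thus opposite to that in most clusters. Where *Trp63* was lower in W, the share of genes with a higher ratio ran from 49.9% in cluster 5 to 79.8% in cluster 2. *Trp53*, the other p53 family member above the floor, had a pooled level of 31.1 CPM in UW against 62.5 in W, a log2 ratio of 1.007 that was under 2-fold with TMM factors (0.79) and lay between -0.17 in cluster 2 and 0.56 in cluster 7 inside the epithelial clusters.

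All 9 genes listed as p63 targets passed the floor in the pooled epithelium, with 2 past 2-fold higher and 1 lower beside 13.8% and 7.36% of all genes. *Krt14*, a basal keratin, rose from 514.3 CPM in UW to 11192 in W (log2 ratio 4.44), and *Itgb4*, an integrin of the basal attachment plaque, from 31.6 to 109.6 CPM (1.79). *Fras1*, a basement membrane protein, had 10.4 and 0.682 CPM (-3.93). The other 6 genes were within 2-fold, among them *Krt5* with 6890 and 6394 CPM (-0.11), *Col17a1* with 318 and 563 (0.82) and *Perp* with 2603 and 1731 (-0.59). *Jag2* and *Itga6* had pooled log2 ratios of 0.92 and 0.44. In limbal cluster 9 several of these genes differed in the opposite direction, with log2 ratios of -0.24 for *Itgb4*, -0.54 for *Col17a1*, -0.49 for *Itga6*, -0.76 for *Jag2*, 0.34 for *Krt5* and 0.10 for *Perp*.

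*Tfap2a* (chr13:40715302-40738376), an AP-2 factor of surface ectoderm, was also higher in the basal than in the superficial clusters. In UW it ran from 71.0 CPM in cluster 9 to 23.5 in cluster 7, and in W from 48.9 in cluster 3 to 17.4 in cluster 7. The last overlapped the 12.2 CPM of immune cluster 14, but in UMIs per cell it was at 0.394 beside 0.127. *Tfap2a* was the factor with the most uniform direction, lower in W in 10 of 10 epithelial clusters, from -0.12 in cluster 6, where the interval (-0.30 to 0.06) held 0, to -1.07 in cluster 9, and no scaling or filter turned any of these signs. The share of genes with a higher ratio than *Tfap2a* ran from 52.9% in cluster 6 to 93.4% in cluster 9. The levels in cluster 9 were 71.0 CPM for UW and 33.9 for W, a log2 ratio of -1.07 (-1.23 to -0.91) that became -0.94 with TMM factors and so lost its place past 2-fold. The larger gaps were in the limbal and cycling clusters, -0.67 in cluster 8 and -0.80 in cluster 11. Its paralogs differed by tissue. *Tfap2c* held 23.6 and 22.8 CPM in the pooled epithelium of UW and W, and *Tfap2b* held 423 and 239 CPM in the stroma against 4.99 and 9.48 in the epithelium. *Egfr*, listed as an AP-2 target, stood at 74.1 and 51.0 CPM, a log2 ratio of -0.54.

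*Sox9* (chr11:112782224-112787760), a factor of progenitor cells in many epithelia, had the largest ratios among those past the floor. In UW it was highest in the limbal and basal clusters, with 436 CPM in cluster 9, 411 in cluster 8, 367 in cluster 3 and 358 in cluster 11, against 266.3 in cluster 1, 145.5 in cluster 5, 133.9 in cluster 4, 70.3 in cluster 2, 14.6 in cluster 6 and 9.37 in cluster 7. In W it stood at 267 CPM in cluster 9, 335 in cluster 8, 459.5 in cluster 3 and 276 in cluster 11, and at 339 in cluster 1, 181.6 in cluster 5, 457 in cluster 4, 251.2 in cluster 2, 87.4 in cluster 6 and 29.7 in cluster 7. The suprabasal cluster 4 thus reached the level of basal cluster 3, and the intervals of those clusters overlapped in W.

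The log2 ratio of *Sox9* was 1.77 (1.72 to 1.82) in cluster 4, 1.84 (1.78 to 1.90) in cluster 2, 2.58 (2.44 to 2.72) in cluster 6 and 1.67 (1.45 to 1.88) in cluster 7. It was 0.32 in basal cluster 3, 0.35 in cluster 1 and 0.32 in cluster 5, and -0.71 (-0.77 to -0.65) in limbal cluster 9, -0.37 in cluster 11 and -0.30 in cluster 8. *Sox9* was therefore lower in W in the limbal and cycling clusters and higher in the other 7 epithelial clusters, basal cluster 3 among them, and neither direction turned under any scaling or filter. In UW, *Sox9* in cluster 6, at 14.6 CPM (13.5 to 15.8), was little above the 11.9 CPM (10.7 to 13.3) of the stroma and in cluster 7 it was below it, so these ratios rest on levels near that of free RNA. Of 5802 genes with a ratio in every epithelial cluster, 9.08% were past 2-fold higher in W in at least 4 of them, and 0.500% also lay below 0 in at least 3, limits that were set from the pattern of *Sox9* itself. In cluster 6, 2.61% of genes had a higher ratio than *Sox9*, in cluster 2 3.25%, in cluster 4 4.16% and in cluster 7 7.23%.

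**Figure D2:**
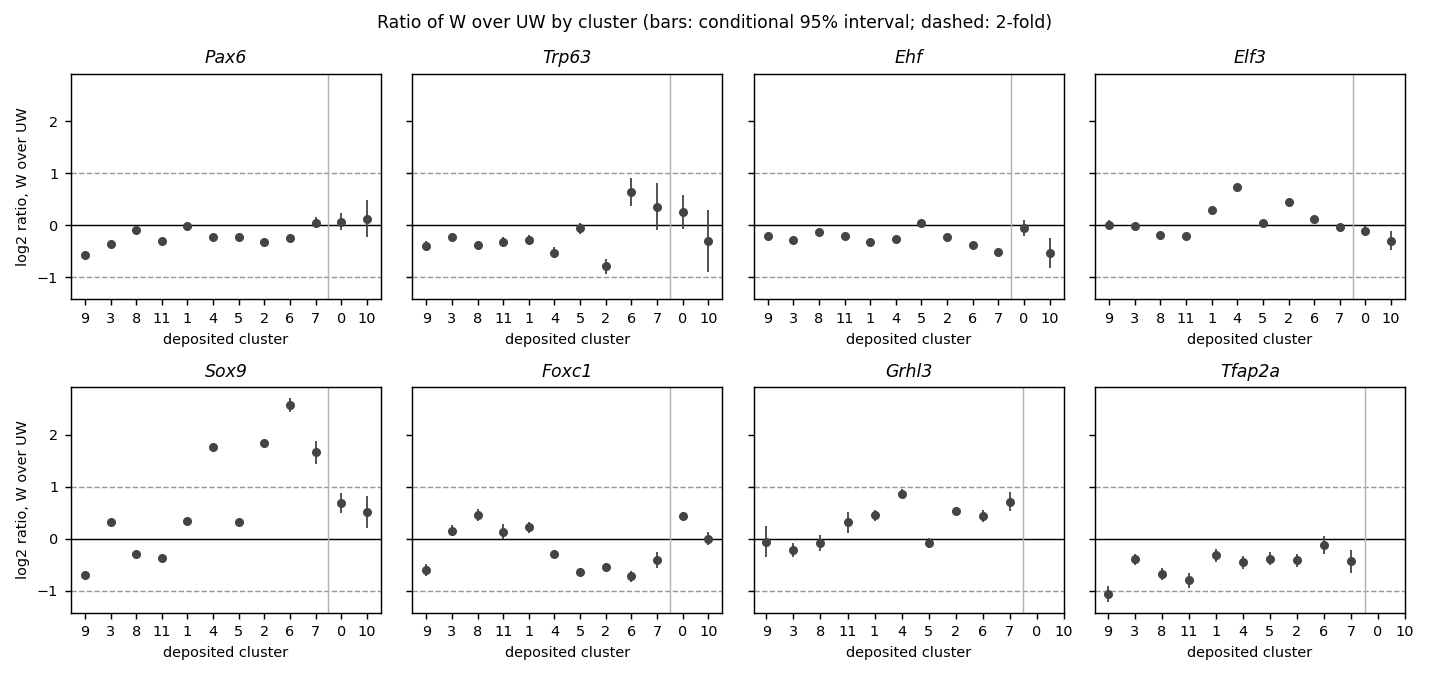
Log2 ratio of W over UW by deposited cluster for the 8 factors other than *Foxc2*, with conditional 95% intervals, a solid line at 0 and dashed lines at 2-fold. *Sox9* lies above the upper dashed line in clusters 4, 2, 6 and 7 and below 0 in clusters 9, 8 and 11, and *Tfap2a* lies below 0 in all 10 epithelial clusters.

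Sums of several marker lists also differed between the libraries in clusters 2, 4, 6 and 7. The 6 basal markers, all detected, summed to 4126 CPM in UW and 11242 in W in cluster 6, to 1019.7 and 4771 in cluster 7, to 7121 and 13397 in cluster 2 and to 6542 and 6763 in cluster 4. *Krt15* made up most of these sums, which were lower in basal cluster 3 (3337 and 4278 CPM) than in clusters 2 and 4, so they do not mark the basal layer here. The 3 limbal markers, all detected, summed to 18.4 and 963.7 CPM in cluster 4, led by *Gpha2* in UW and *Ifitm3* in W, to 36.8 and 866 in cluster 6 and to 46.5 and 1223 in cluster 7. The 4 conjunctival keratins, led by *Krt13*, summed to 2044 and 3931 CPM in cluster 4, to 5812 and 12944 in cluster 6 and to 4021 and 12280 in cluster 7. In cluster 4 the 3 suprabasal markers, led by *Dapl1*, summed to 3632 and 1440.5 CPM and the 5 superficial markers, led by *Lypd2*, to 13342 and 5292. The superficial sums were 23436 and 12241 CPM in cluster 2, 49710 and 25446 in cluster 6 and 60051 and 29458 in cluster 7. Of the 3 neutrophil markers, *S100a9* led in cluster 4 and *Retnlg* was at 0 in both libraries, with sums of 4.42 and 736.8 CPM. Such differences were also found where *Sox9* was lower in W, with limbal sums of 204.6 and 2471 CPM in cluster 8 and 135.5 and 2462 in cluster 11, and a neutrophil sum of 8.99 and 642.7 in cluster 8. The part of these shifts in the *Sox9* ratios was not tested.

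The share of cells with a *Sox9* UMI followed the CPM. In cluster 4, 80.7% of UW cells (median 26359 UMIs) and 95.2% of W cells (median 20584.5) had one, and after each cell was thinned to 5000 UMIs, with 40 and 19 shallower cells left out, the shares were 40.0% (37.5 to 42.5) and 75.6% (72.6 to 78.4). Thinned likewise, the shares in cluster 2 were 22.6% and 60.2% (unthinned 62.6% and 89.4%, 15 and 7 cells left out), in cluster 6 6.80% and 26.2% (26.3% and 54.1%, 33 and 27), and in cluster 7 4.62% and 12.5% (17.9% and 34.8%, 19 and 15). Monocyte-like cells, which should lack *Sox9*, had 18.0% in cluster 14 of W (13.5 to 23.2, median 8724 UMIs, unthinned 28.8%, 98 cells left out) and 12.4% in cluster 15 (8.52 to 17.2, median 10144, unthinned 20.7%, 9 left out). In the stroma of UW (median 11853) the thinned *Sox9* share was 5.31% (unthinned 11.99%, 51 left out), with an interval that overlapped those of clusters 6 and 7 of UW. Clusters 4 and 2 of W were far above the immune clusters. Cluster 6 of W (22.8 to 29.9) overlapped cluster 14, and cluster 7 of W overlapped clusters 14 and 15. The median depths of clusters 2, 6 and 7 were 28377, 26510 and 23636 UMIs in UW and 22095.5, 20913 and 21232.5 in W.

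In *Sox9* UMIs per cell, cluster 6 held 0.416 in UW and 1.995 in W and cluster 7 held 0.225 and 0.672, beside 0.143 in the stroma of UW and 0.36 in that of W, 0.833 in cluster 14 and 0.259 in cluster 15 of W. Cluster 6 of W was above the non-epithelial cells by this measure, but its 87.4 CPM overlapped the 80.1 CPM of cluster 14, and after thinning to 2000 UMIs its share of 12.6% had an interval that overlapped that of cluster 14, at 11.1%. Cluster 7 of W was above the stroma and cluster 15 and below cluster 14, so its fold cannot be told apart from free RNA.

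Within cluster 4, *Sox9* was found in like shares of cells with and without a *Trp63* UMI. With cells thinned to 5000 UMIs, the shares were 41.5% with and 39.4% without in UW, and 73.4% and 76.1% in W. The detection of *Sox9* there did not follow that of *Trp63* in either library.

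Between clusters, the levels of *Sox9* and *Trp63* ran together. Over the 12 clusters, which share a library and many cell types, the Pearson correlation of log2 levels was 0.993 in UW and 0.903 in W. *Trp63* was the gene most like *Sox9* among 9702 in UW and ranked 192 in W. Over the 10 epithelial clusters, the correlation of *Sox9* with *Elf3* was -0.91 in UW and -0.56 in W. Over the 12 clusters it was -0.098 and 0.30. Neither *Sox8* nor *Sox10*, the closest relatives, passed the floor in the pooled epithelium, nor did *Col2a1*, listed as a target, and *Acan*, the other target, is not in the table.

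*Ehf* (chr2:103263433-103303278), an ETS factor of epithelial differentiation, was nearly flat over the layers. In UW it ran from 570.2 CPM in cluster 1 to 344 in cluster 11, and in W from 455 in cluster 1 to 242 in cluster 7. Its highest and lowest epithelial clusters differed 1.66-fold in UW and 1.88-fold in W. *Ehf* was lower in W in 9 of 10 epithelial clusters under every scaling and filter, down to -0.52 (-0.58 to -0.46) in cluster 7, and the exception was conjunctival cluster 5 at 0.05 (0.02 to 0.09). The share of genes with a higher ratio than *Ehf* ran from 43.1% in cluster 5 and 50.5% in cluster 2 to 80.4% in cluster 7.

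*Elf3* (chr1:135253575-135258568), an ETS factor of terminal differentiation, climbed with the layers. In UW it stood at 185.3 CPM in cluster 9, 364.7 in cluster 3, 969.5 in cluster 4, 1290 in cluster 2, 2004 in cluster 6 and 2439 in cluster 7, and in W at 186.2, 361, 1608, 1757, 2176 and 2386 CPM. The ends of this slope were alike in the libraries and the middle was higher in W. Immune clusters 14 and 13 of W held 370.4 and 220.7 CPM, so in CPM the low end in W was not above them. Their cells were shallower, with medians of 8724 and 2509.5 UMIs beside 24009 in cluster 9 of W. In *Elf3* UMIs per cell, cluster 9 of W held 4.85, above 3.86 in cluster 14 and 0.570 in cluster 13. The log2 ratio was 0.73 (0.71 to 0.75) in cluster 4, 0.45 in cluster 2 and 0.29 in cluster 1, and from -0.20 in cluster 11 to 0.12 in cluster 6 in the other epithelial clusters, of which clusters 3, 5, 6, 7 and 9 changed sign with some scaling or filter. The pooled ratio was the opposite, -0.29 (-0.30 to -0.29), and turned to 0.18 with equal weight for each cluster.

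*Grhl3* (chr4:135541888-135573630), a grainyhead-like factor of barrier formation and epithelial closure, was highest in clusters 5, 2, 1 and 4 of UW, whose neighbours overlapped, and in clusters 4, 2 and 1 of W. In UW it stood at 16.02 CPM in cluster 9, 50.4 in cluster 4, 53.6 in cluster 2 and 19.2 in cluster 7, and in W at 15.3, 91.9, 77.7 and 31.5 CPM, and cluster 9 of W was not above the 21.2 CPM of immune cluster 14. It was higher in W in 6 of 10 epithelial clusters under every scaling and filter, most in cluster 4 with 0.87 (0.78 to 0.96) and cluster 7 with 0.71 (0.53 to 0.90), which became 0.33 with TMM factors. *Grhl3* and *Elf3* were both higher in W in clusters 1, 2 and 4 under each scaling and filter. The pooled ratio of *Grhl3* was 0.13 and turned to -0.09 with TMM factors.

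Relatives and targets of these 3 factors gave a mixed picture. *Elf1*, *Elf2* and *Elf5* had pooled log2 ratios of -0.30, -0.20 and -0.12. *Grhl1* fell from 108.2 CPM in UW to 51.5 in W, a log2 ratio of -1.07, and *Grhl2* had 26.0 and 30.4 CPM (0.22, and -0.01 with median-of-ratios size factors). *Tgm1*, a crosslinking enzyme listed as a Grhl3 target, stood at 37.8 and 59.5 CPM (0.66) and *Arhgef19* at 9.16 and 9.35 (0.03, and -0.19 with TMM factors). *Krt8*, listed as an Elf3 target, stood at 16.9 and 18.8 CPM (0.16, and -0.06 with TMM factors), and *Tgm3* was under the floor.

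*Foxc1* (chr13:31806633-31812476) was expressed in both epithelium and stroma. In UW it stood at 89.2 CPM in the stroma, 150.4 in cluster 10, 138.5 in conjunctival cluster 5 and 119.9 in cluster 9, against 46.4 in cluster 11. In W it stood at 120.8 in the stroma, 150.3 in cluster 10, 88.8 in cluster 5, 78.7 in cluster 9 and 50.8 in cluster 11. *Foxc1* was lower in W in 6 of 10 epithelial clusters, down to -0.73 (-0.84 to -0.62) in cluster 6. In those 6, the share of genes with a higher ratio ran from 54.8% in cluster 4 to 83.3% in cluster 6. *Foxc1* was higher in clusters 1, 3, 8 and 11, up to 0.46 (0.34 to 0.57) in cluster 8. In cluster 11 the interval (-0.015 to 0.28) held 0. In the stroma the log2 ratio was 0.44 (0.36 to 0.51), and its direction there and in the epithelial clusters held under every scaling and filter. Cluster 10 did not differ detectably at -0.0016 (-0.13 to 0.13), and 0.11 with TMM factors.

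*Foxc2* (chr8:121116171-121118895), the paralog of *Foxc1*, had its highest level in cluster 10. There UW held 14.7 CPM (11.7 to 18.2) and W 22.5 (19.4 to 25.9), a log2 ratio of 0.61 (0.23 to 1.00). Elsewhere it was highest in limbal cluster 9, at 4.20 (2.87 to 5.93) and 1.81 (1.32 to 2.42) CPM, and in the stroma, at 1.62 and 2.13 CPM. In cluster 4 of UW, 0 of 43179938 UMIs were *Foxc2*, a count that allows up to 3, and the pooled epithelium held 50 UMIs in UW and 97 in W. After thinning to 5000 UMIs, 7.86% of cluster 10 cells in UW and 11.1% in W had a *Foxc2* UMI (13.6% and 22.3% unthinned, medians 9288 and 12198 UMIs, 18 and 12 cells left out), against 0 of the 242 cells of cluster 15 left after thinning (median 10144, 0 of 251 unthinned, which allows up to 1.195%).

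UMIs of the epithelial factors were also found outside the epithelium, and their levels there were set against free RNA. In the stroma of UW, 8 epithelial genes such as *Krt12* and *Dsp* stood at 4.98% to 11.2% of their pooled epithelial level, and in W at 5.90% to 9.03%. *Aldh3a1* and *Aldh1a1* had been listed with them and were left out after their values were seen, since the stroma holds them itself. *Pax6* stood at 7.51% and 8.76%, *Trp63* at 7.83% and 8.06%, *Sox9* at 7.19% and 6.70% and *Elf3* at 5.58% and 6.32%. Of the 9 factors, *Foxc1*, at 108% and 170.5%, and *Foxc2* were above that range in the stroma, and the other 7 lay in it. In cluster 10 of W, *Sox9* at 11.9% (10.6 to 13.4) lay above the highest of the 8 genes there, 9.54%, and in UW at 14.4% (12.1 to 17.01) it lay below *Krt14*, at 17.2%, and above the other 7 genes. In the 4 immune clusters of W, no factor had an interval above the range of the 8 genes in the same cluster. That range was 26.6% to 43.4% in cluster 13 and 28.5% to 51.5% in cluster 14. It was 8.84% to 11.7% in cluster 15 and 14.7% to 24.8% in cluster 16. The 8 genes thus stood far higher in cluster 14 than in the stroma or cluster 15 of W.

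**Figure D3:**
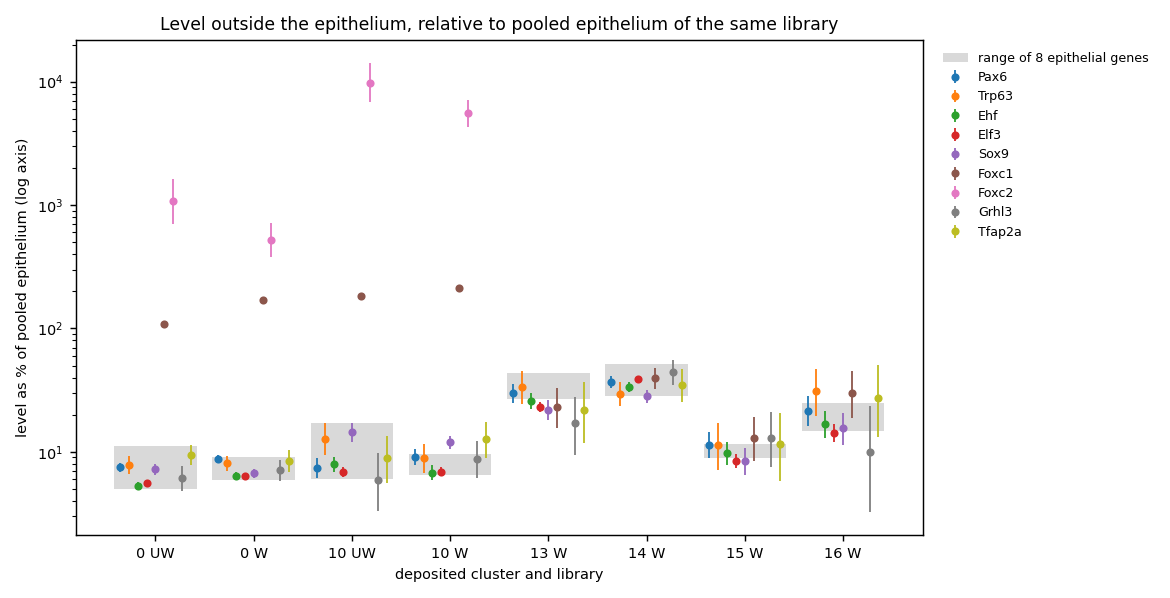
Level of each factor outside the epithelium as a percent of its pooled epithelial level in the same library, on a log axis, with 95% intervals, for factors with at least 3 UMIs. Grey boxes span 8 epithelial genes in the same cells. *Foxc1* and *Foxc2* lie far above the boxes in clusters 0 and 10, and the other factors lie in or near them.

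The genes with the most similar pattern were sought over 28 groups, each a cluster of a library with at least 50 cells, by Pearson correlation of log2 levels among 9703 genes. *Pax6* was closest to *Ripk4* (0.989), *Anxa8* and *Net1*, and *Ehf* to *Net1* (0.990) and *Erbb3*. *Trp63* was closest to *Plch2* (0.981), *Fermt1* and *Rab38*, and *Sox9* to *F2rl1* (0.956), *Pak6* and *Fermt1*. *Elf3* was closest to *Crybg2* (0.993), *Tjp3* and *Stap2*, and *Grhl3* to *2610528J11Rik* (0.976), *Cadm4* and *Tmprss11b*. *Tfap2a* was closest to *Arhgef5* (0.968), *Meis2* and *Pax6* itself. *Abhd4* and *Osbpl5* were among the 3 genes closest to *Foxc1*, and *Foxc2* was closest to *Ntrk3* (0.943), *Ltbp2* and *Ctgf*. Of the 27 places, 12 were kept with Spearman's rho and 5 in the groups of UW alone, so the named neighbours depend on the measure and the groups.

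Promoter windows of 300 bases came from a table of RefSeq windows (GRCm38.p6) that held 5 of the 9 factors, *Pax6*, *Elf3*, *Foxc1*, *Grhl3* and *Tfap2a*, and not *Trp63*, *Ehf*, *Sox9* and *Foxc2*. The most common placement over all windows was from 250 bases before the gene start to 50 after it. By the gene positions given here, the *Elf3* window reaches further into its gene. The windows of *Tfap2a* and the second of *Pax6* lie wholly inside their genes. Each was searched on both strands for 6 motifs, TGANTCA (AP-1), GCCNNNGGC (AP-2), CCGGAAG (ETS), AACCGG (grainyhead-like), CCAAT and TATAAA, which are found in 7.81%, 16.6%, 8.86%, 6.83%, 37.4% and 13.6% of all 32851 windows. The windows of *Elf3* (chr1:135258423-135258722, minus strand) and *Grhl3* (chr4:135573583-135573882, minus strand) are shown because both genes were higher in W in clusters 1, 2 and 4. Capitals mark AACCGG and CCAAT, the latter also as its reverse complement, and a match is a description of letters, not a binding site.
Elf3: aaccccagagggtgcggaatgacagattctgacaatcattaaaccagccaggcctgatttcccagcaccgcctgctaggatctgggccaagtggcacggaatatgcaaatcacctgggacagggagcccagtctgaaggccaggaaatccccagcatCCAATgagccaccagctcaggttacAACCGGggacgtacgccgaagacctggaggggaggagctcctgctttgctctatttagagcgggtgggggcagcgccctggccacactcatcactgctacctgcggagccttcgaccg
Grhl3: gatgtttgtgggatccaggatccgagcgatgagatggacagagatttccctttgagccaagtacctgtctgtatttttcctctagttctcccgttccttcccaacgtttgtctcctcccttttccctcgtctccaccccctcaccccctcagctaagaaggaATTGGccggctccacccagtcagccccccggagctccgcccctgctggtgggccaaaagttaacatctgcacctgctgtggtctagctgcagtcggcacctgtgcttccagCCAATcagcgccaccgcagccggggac

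The *Elf3* window holds AACCGG once and CCAAT once, and the *Grhl3* window holds CCAAT at 2 places. The first *Pax6* window (chr2:105668646-105668945) and the *Foxc1* window (chr13:31806396-31806695) each hold GCCNNNGGC once together with CCAAT, and none of the 6 motifs is in the windows of *Tfap2a*.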

How the data were processed

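The deposited UMI counts, not normalized, were made by the authors with Cell Ranger 3.1.0 and Seurat, who removed doublets and low-quality cells. The labels name the mm9 build and the v3 kit, while the methods of the study name an mm10 reference and the V2 kit, so positions were taken by symbol from GENCODE M21 (GRCm38). The deposited cell attributes (library, cluster, doublet calls) are other than counts, made by the authors, and the deposited clusters were used as given. 52 barcodes occur in both libraries. The factors and gene lists were chosen with earlier results of these data known.

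Counts were summed by cluster and library in Python 3.11.15 (numpy 2.4.6, pandas 2.3.3, scipy 1.17.1, matplotlib 3.10.9) and scaled to CPM of the sum. Intervals are exact Poisson for levels, conditional binomial for ratios and Clopper-Pearson for shares. Thinning drew UMIs without replacement (seed 1). Likeness used log2 of CPM plus 1, over genes that reached 20 CPM in 1 group or more. Named genes are the factors in every cluster with at least 50 cells, family and target genes with at least 5 CPM, from the other lists up to 5 past 2-fold in each direction, and the 3 most similar genes, of which a few are not reported here. The code was tested on simulated counts. Alternatives were 2 other scalings in R 4.3.3, TMM factors by edgeR 4.0.16 and the median-of-ratios size factors of DESeq2 1.42.0, a stricter cell filter (1000 genes or more, mitochondrial UMIs up to 5%), cells not called doublets in the first run, the mean over cells, equal weight per cluster, other floors and thinning.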

Additional observations from a re-analysis of the deposited data

Results flagged for a closer look

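For 6 of the factors, counted over ratios past the floor, clusters lay on opposite sides of 0 with intervals that exclude it, and the difference between the clusters was not tested. The highest and lowest log2 ratios of W over UW were, for *Sox9*, 2.58 in cluster 6 and -0.71 in cluster 9, and for *Trp63*, 0.65 in cluster 6 and -0.79 in cluster 2. *Grhl3* had 0.87 in cluster 4 and -0.22 in cluster 3, and *Elf3* had 0.73 in cluster 4 and -0.30 in cluster 10. *Foxc1* had 0.46 in cluster 8 and -0.73 in cluster 6, and *Ehf* had 0.0523 in cluster 5 and -0.54 in cluster 10. Among the values given here, *Elf3* and *Ehf* in cluster 10 were close to the level of free RNA. *Trp63* in cluster 6, at 7.51 CPM in UW and 11.8 in W, was above the stroma, at 4.82 and 5.76. In W it was below the 21.2 CPM of cluster 14, though not in UMIs per cell, 0.268 beside 0.220. *Sox9* in cluster 6 of UW was little above the stroma in CPM, 14.6 beside 11.9, and held 0.416 UMIs per cell beside 0.143. In CPM, *Sox9* in cluster 6 of W overlapped immune cluster 14. *Trp63* in cluster 2 of W, at 21.0 CPM, also overlapped cluster 14 but was above the stroma of W, at 5.76 CPM.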

How the results depend on the processing

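No paired analysis was possible because each library pooled its own mice. In the pooled epithelium, log2 ratios with TMM factors were -0.37 for *Pax6*, -0.0012 for *Trp63*, -0.53 for *Ehf*, -0.51 for *Elf3*, 0.56 for *Sox9*, -0.44 for *Foxc1*, -0.0918 for *Grhl3* and -0.51 for *Tfap2a*, and with median-of-ratios size factors -0.39, -0.0175, -0.54, -0.53, 0.55, -0.46, -0.11 and -0.53 in the same order. With the stricter cell filter, *Trp63* had 0.26, *Ehf* -0.32, *Elf3* -0.33, *Sox9* 0.74 and *Grhl3* 0.0844, and without first-run doublets *Elf3* had -0.30 and *Sox9* 0.80. In the mean over cells, *Pax6* had -0.12, *Trp63* -0.0123, *Ehf* -0.28, *Elf3* 0.0063, *Foxc1* -0.15, *Grhl3* 0.29 and *Tfap2a* -0.36. With equal weight per cluster, the 8 ratios were -0.25, -0.33, -0.24, 0.18, 0.28, -0.29, 0.35 and -0.55 in the first order.

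Leaving out cluster 7, leaving out barcodes found in both libraries, and thinning every cluster to 2000 UMIs were chosen after seeing the data. Without cluster 7 the 8 ratios were -0.22, 0.13, -0.32, -0.21, 0.69, -0.25, 0.0550 and -0.34, and without shared barcodes all lay within their intervals. Of the 93 ratios within clusters, 9 changed sign with each of the other scalings, 4 with the stricter filter, 7 in the mean over cells and 1 without doublets. The ratios past 2-fold higher numbered 4 in each case, and those lower 1, or 0 with TMM factors and with median-of-ratios size factors.

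Genes past 2-fold in the pooled epithelium numbered 1265 higher and 675 lower. There were 4127 and 1655 with at least 1 UMI in each library and no other floor, and 631 and 462 with a floor of 20 CPM. With TMM factors 922 were higher and 1087 lower, and with median-of-ratios size factors 906 and 1116. In cluster 4 the *Sox9* share was 40.0% in UW and 75.6% in W at 5000 UMIs, and 21.9% and 51.0% at 2000. Of the most similar genes, 12 were kept with Spearman's rho and 5 in UW alone. The causes of these shifts were not tested. With 1 library per condition, no difference can be told apart from variation between animals or preparations.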

Other observations

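A list of other transcription factors of the eye was counted in the pooled epithelium, whose makeup by cluster differed between the libraries. Of 59 listed genes, 51 are in the table and 23 passed the floor, which needs 5 CPM in either library. Of these, 8 were past 2-fold higher and 0 lower, beside 13.8% and 7.36% of all genes, and the median log2 ratio was 0.81. With TMM factors 6 were higher and 1 lower, beside 922 higher and 1087 lower of all 9171 genes. *Pitx1*, *Maf*, *Foxa1* and *Twist1* were under 5 CPM in UW and passed through W alone. The floor thus partly sets the count of 8, from which no conclusion is drawn. Among those above 5 CPM in both libraries, *Barx2*, a homeobox factor, had 6.81 CPM in UW and 54.4 in W (log2 ratio 2.998). *Creb5* had 8.71 and 63.1 (2.86). Of those that passed through W alone, *Pitx1* had 0.52 and 5.12 CPM (3.30), *Maf* 1.47 and 7.57 (2.37) and *Foxa1* 2.40 and 9.25 (1.95). Of the 8, *Twist1* held 3.06 and 6.88 CPM in the epithelium but 907 and 988.5 in the stroma, so its epithelial UMIs cannot be told apart from free RNA. *Maf* was far higher outside the epithelium, with 135.5 and 112.2 CPM in the stroma and 235.8 and 261.7 in the immune clusters 15 and 16 of W. The gene that lay past 2-fold lower with TMM factors was *Nr2f2*, at 90.8 and 45.5 CPM (-0.997, and -1.21 with TMM factors).

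Cluster 17, with 29 cells in W and 0 in UW, was under the limit of 50 cells. *Foxc1* stood there at 90.0 CPM (66.4 to 119.4) and *Pax6* at 18.8 (8.996 to 34.5).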
